A study of Mus musculus with 10 samples.

Results

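The imprinted growth-network genes *H19*, *Igf2*, *Meg3*, *Peg3*, *Plagl1*, *Mest*, *Dlk1*, *Grb10* and *Ndn* were followed through 10 mouse hearts. They were picked by name, as the rows of the expression table that carry these 9 symbols, and they make up 9 of its 54532 genes. All 10 hearts came from *Rit1* M90I/+ mice, which carry 1 allele of a Noonan syndrome variant of the small GTPase RIT1. They were the offspring of males homozygous for the conditional allele and females of a CMV-Cre deleter strain, so the allele was not restricted to a cardiac cell type. Of these, 5 were labelled vehicle, the control, and 5 MEKi, which stands for the MEK inhibitor trametinib. Dosing was daily at 1 mg/kg, began at 4 weeks of age and lasted 20 weeks. No heart without the variant was analysed here, so the comparison lies within the mutant genotype. Transcripts of the sex chromosomes divided the groups as treatment did. The Y-linked *Ddx3y* averaged 11.2 FPKM in vehicle hearts and 0 in MEKi hearts, and *Xist* 0.00132 and 5.86 FPKM. Contributions of sex and treatment therefore cannot be told apart. Samples of a group were labelled as replicates 1 to 5. The 6 cardiomyocyte markers read (*Myh6*, *Tnnt2*, *Actc1*, *Ttn*, *Ryr2* and *Pln*) were present in every heart and summed to between 7667 and 10232 FPKM.

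An imprinted gene is transcribed from only 1 of its parental copies, set by methylation laid down in the egg or sperm. Many imprinted genes regulate fetal growth, are abundant in the fetus and fall after birth as growth slows. *Plagl1*, a zinc finger transcription factor, is known to regulate several others, and the set is often called the imprinted gene network. *H19* and *Igf2* lie side by side on chromosome 7, where *H19*, a maternally expressed noncoding RNA, and *Igf2*, a paternally expressed fetal growth factor, compete for the same enhancers. *Dlk1* and *Meg3* form a second pair on chromosome 12, with a paternal transmembrane protein and a maternal noncoding RNA. The values below add up both parental copies, so they carry no information on imprinting itself.

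Several of these transcripts host a microRNA, and the mature sequences (RefSeq, GRCm38.p6) are shown because the host RNA and the processed product are separate readouts of the same locus. Capitals mark the seed, bases 2 to 8, that pairs with target RNAs. The pair from *H19* lies in an exon of the RNA (chr7:142577078-142577099 and chr7:142577112-142577133, minus strand).
miR-675-3p: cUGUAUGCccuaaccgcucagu
miR-675-5p: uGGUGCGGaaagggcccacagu
The *Igf2* locus holds a second pair (chr7:142654932-142654952 and chr7:142654968-142654989, minus strand).
miR-483-3p: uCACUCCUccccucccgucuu
miR-483-5p: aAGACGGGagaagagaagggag
*Mest* holds another pair (chr6:30741314-30741336 and chr6:30741354-30741375, plus strand).
miR-335-5p: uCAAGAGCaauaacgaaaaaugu
miR-335-3p: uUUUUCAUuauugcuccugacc
No seed was shared among these sequences. The libraries were selected for poly(A) RNA, and the hairpin genes were nearly empty in them. *Mir675* and *Mir483* were listed at 0 in all 10 hearts, and *Mir335* had 1 fragment in 1 heart. *H19* shares 84 exon bases with *Mir675* on the same strand, and how shared fragments were counted is not given. The 0 of *Mir675* is thus no measure of the hairpin. All expression values below therefore refer to the host transcripts.

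Expression was deposited as FPKM (fragments per kilobase of transcript, scaled to library size), a level per unit length, so genes can be ordered by it. The fragments assigned to genes numbered 13647167 to 18474002 in a heart. *H19* was by far the most abundant of the 9 transcripts, at a mean of 36.3 FPKM over the 10 hearts, above 95.7% of the 24630 genes detected in any heart. *Grb10*, an adaptor that restrains insulin and IGF receptor signalling, followed at 6.09 FPKM. *Ndn*, which encodes the growth suppressor necdin, stood at 4.63 FPKM and *Mest*, a hydrolase-like protein of mesodermal tissue, at 1.21 FPKM. The network regulator *Plagl1* came to 0.795 FPKM and the zinc finger gene *Peg3* to 0.486 FPKM. *Igf2* was at only 0.456 FPKM and *Meg3* at 0.265 FPKM. *Dlk1*, an inhibitor of adipocyte differentiation, was last at 0.0536 FPKM, below the level of 1 FPKM by a wide margin and based on at most 11 fragments in a heart.

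Not every step in this order held in each heart. *H19* exceeded *Grb10* 5.96-fold in means and in 10 of 10 hearts, with no overlap of the ranges. *Grb10* and *Ndn* were much closer, with *Grb10* higher in 7 of 10 hearts and a ratio of means of 1.31. *Ndn* exceeded *Mest* 3.82-fold in 10 of 10 hearts, again with separate ranges. *Mest*, *Plagl1*, *Peg3*, *Igf2* and *Meg3* followed each other with overlapping ranges. In that stretch *Peg3* and *Igf2* were nearly level, with *Peg3* higher in 7 of 10 hearts and a ratio of means of 1.07. *Meg3* exceeded *Dlk1* 4.95-fold in 10 of 10 hearts.

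The annotation limits how far some of these levels can be compared with the rest, most of all for *Igf2* and *Mest*. Of the 5723 exon bases of *Igf2*, 62.8% also belong on the same strand to *Gm49394*, a gene model that runs across the locus (GENCODE M21, whose coordinates equal the deposited ones for 9 of 9 members). *Gm49394* itself was listed at 0 in all hearts. A counter that skips fragments shared by 2 genes would leave these bases of *Igf2* empty while its full length still divides the value, and how shared fragments were treated is not given in the sources used here. The level of *Igf2* relative to other genes is therefore uncertain, whereas every heart is subject to the same annotation. For *Mest*, 23.1% of 3945 exon bases overlap *Copg2* on the opposite strand, which had 5.24 FPKM, and without strand information the reads of the 2 genes cannot be told apart there. Over both strands, smaller shares of exon bases overlapped other genes for *H19* (9.15%), *Meg3* (8.29%) and *Plagl1* (0.486%). Exons of *Grb10*, *Ndn*, *Peg3* and *Dlk1* overlapped no other gene.

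None of the 9 genes differed between MEKi-treated and vehicle hearts beyond the spread among hearts. Fold changes were taken from limma on log2(FPKM + 0.1), a scale that understates changes of genes with low FPKM, with Benjamini-Hochberg adjustment. *H19*, *Grb10*, *Ndn*, *Mest* and *Plagl1* passed the filter of a mean of at least 0.5 FPKM and were read from the fit over 12602 genes. *Igf2*, *Meg3*, *Peg3* and *Dlk1* fell under it and were read from a fit over all 24630 genes above 0. The background was low in both fits. At an adjusted p under 0.05, 10 of 12602 genes were called (0.0794%), and 11 of 24630 (0.0447%). With X, Y and mitochondrial genes removed, 0 genes were called in either fit. All 9 members are autosomal, so the absence of a call does not distinguish them from other autosomal genes. Separate groups, with no overlap of hearts, were seen in 207 genes past the filter (1.64%) and in 275 of those above 0 (1.12%). Of the 207, 100 were higher and 107 lower with MEKi, which became 153 and 49 on a TPM scale. An unadjusted limma p under 0.05 was reached by 960 of 12602 genes and by 1424 of 24630. Among the 9 members, 0 were called by limma, 0 had an unadjusted p under 0.05 and 0 had separate groups. With such backgrounds, counts of 0 among 9 genes do not set the members apart from other genes. Voom on the recovered fragments also called 0 members. The members' direction was mixed, with 4 higher and 5 lower in the MEKi group.

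**Figure D1:**
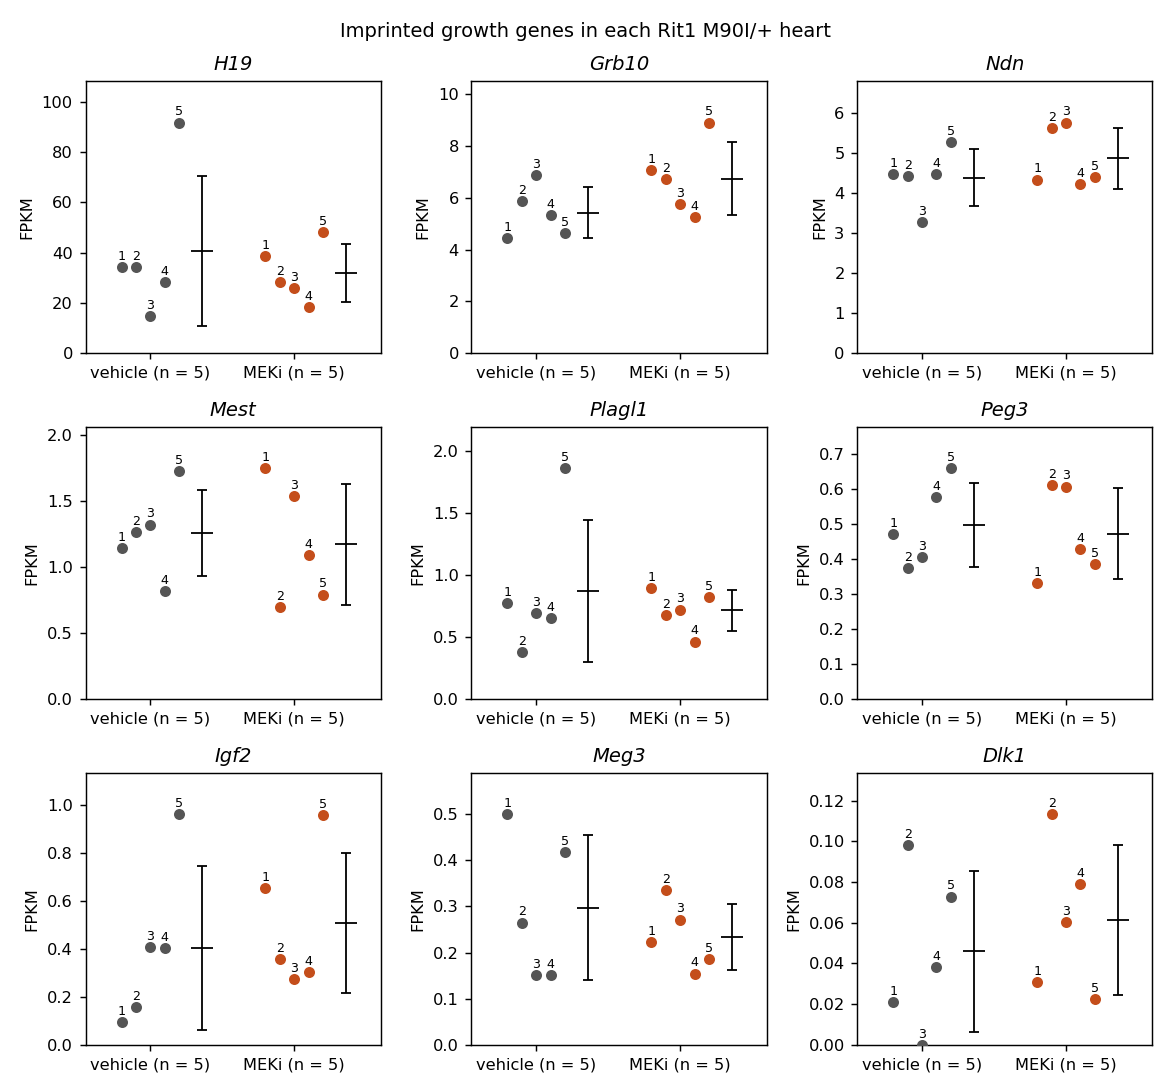
FPKM of the 9 imprinted growth genes in each heart, one panel per gene with its own linear axis from 0; dots are hearts numbered by replicate (vehicle grey, MEKi orange), and bars give the mean ± SD of 5 hearts. The groups overlap in all 9 panels, and vehicle heart 5 lies far above its group for *H19* (91.7 FPKM) and *Plagl1* (1.86 FPKM).

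*H19* (ENSMUSG00000000031, a lincRNA at chr7:142575529-142578143, minus strand) varied more among hearts than it did between groups. In vehicle hearts 1 to 5 it measured 34.2, 34.4, 14.7, 28.4 and 91.7 FPKM, and in MEKi hearts 38.8, 28.4, 25.9, 18.4 and 48.1 FPKM. Every MEKi value lay inside the vehicle range, whose highest and lowest hearts were 6.24-fold apart. The means were 40.7 ± 29.6 and 31.9 ± 11.6 FPKM (SD, n = 5 each; log2 fold change −0.17, SE 0.41, 95% interval −1.05 to 0.72, limma adjusted p = 0.951). A two-sided exact permutation of the group labels gave p = 0.794, where 0.00794 is the smallest value possible. Its direction rested on single hearts. Without vehicle heart 5 the vehicle mean was 27.9 ± 9.24 FPKM (n = 4) and the log2 fold change 0.19 (limma adjusted p = 0.950). The fold change also turned, to 0.012, without MEKi heart 4. The residual SD of *H19* was larger than that of 94.7% of genes tested.

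*Igf2* (ENSMUSG00000048583, chr7:142650766-142666816, minus strand) was scarce, with 9 to 86 fragments per heart. Its level was 0.0935, 0.158, 0.406, 0.402 and 0.960 FPKM in the vehicle group, and 0.652, 0.356, 0.274, 0.303 and 0.956 FPKM in the MEKi group. The highest heart of each group carried nearly the same level, and the 2 lowest hearts were both vehicle hearts. Group means of 0.404 ± 0.342 and 0.508 ± 0.292 FPKM gave a log2 fold change of 0.41 (SE 0.48, 95% interval −0.64 to 1.45, limma adjusted p = 0.845; exact permutation p = 0.444). The interval includes a doubling, so an increase of that size is not excluded for *Igf2* at this depth and spread. The fold change ran from 0.12 without vehicle heart 1 to 0.74 without vehicle heart 5. It was 1.00 without the 3 hearts rich in atrial markers, vehicle hearts 4 and 5 and MEKi heart 2 (limma adjusted p = 0.835). Set against its neighbour, *H19* exceeded *Igf2* between 36.2-fold and 366-fold in vehicle hearts (median, 95.5) and between 50.3-fold and 94.5-fold in MEKi hearts (median, 60.6). These ratios rest on the uncertain level of *Igf2* and serve to compare hearts only.

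*Plagl1* (ENSMUSG00000019817, chr10:13060504-13131694, plus strand), the regulator after which the network is often described, also had its highest level in vehicle heart 5. Vehicle hearts measured 0.775, 0.381, 0.693, 0.652 and 1.86 FPKM, and MEKi hearts 0.895, 0.678, 0.723, 0.465 and 0.822 FPKM. Apart from vehicle heart 5, all hearts lay under 1 FPKM. The means were 0.873 ± 0.573 and 0.717 ± 0.164 FPKM (log2 fold change −0.11, SE 0.33, 95% interval −0.83 to 0.60, limma adjusted p = 0.959; exact permutation p = 0.825). Without vehicle heart 5 the vehicle mean was 0.625 ± 0.171 FPKM (n = 4) and the log2 fold change 0.18 (limma adjusted p = 0.934). Its sign also turned without MEKi heart 4 (0.012). Array weights, which count unusual hearts less, turned it as well, to 0.11.

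*Grb10* (ENSMUSG00000020176, chr11:11930508-12038683, minus strand) came nearest to a shift. Its values were 4.45, 5.88, 6.88, 5.33 and 4.63 FPKM with vehicle, and 7.06, 6.73, 5.75, 5.25 and 8.91 FPKM under MEKi. MEKi hearts 1 and 5 lay above every vehicle heart, and vehicle hearts 1 and 5 lay below every MEKi heart. The group means were 5.43 ± 0.991 and 6.74 ± 1.42 FPKM, a log2 fold change of 0.30 (SE 0.16, 95% interval −0.05 to 0.65, unadjusted p = 0.0842, limma adjusted p = 0.696; exact permutation p = 0.143). The unadjusted p was 0.0293 without vehicle heart 3 and 0.0363 without MEKi heart 4, with limma adjusted p of 0.448 and 0.722. Its 612 to 1272 fragments per heart and a residual SD at the 57.8th percentile made this one of the more precise members. Direction was the same under all alternatives tried.

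*Ndn* (ENSMUSG00000033585, chr7:62346569-62350262, plus strand) was the steadiest member, with 1.76-fold between its extreme hearts. Levels were 4.49, 4.43, 3.27, 4.47 and 5.28 FPKM for vehicle, and 4.34, 5.63, 5.77, 4.22 and 4.41 FPKM for MEKi. MEKi hearts 2 and 3 topped all vehicle hearts, while the other MEKi hearts sat among them. From 4.39 ± 0.717 to 4.88 ± 0.757 FPKM, the log2 fold change was 0.15 (SE 0.14, 95% interval −0.16 to 0.46, limma adjusted p = 0.829; exact permutation p = 0.341). That interval lies well within a doubling in either direction.

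*Mest* (ENSMUSG00000051855, chr6:30723547-30748465, plus strand) spread widely in both groups. Vehicle hearts had 1.14, 1.27, 1.32, 0.819 and 1.72 FPKM, and MEKi hearts 1.75, 0.694, 1.54, 1.09 and 0.790 FPKM. The highest and the lowest of all 10 hearts were both MEKi hearts. Means of 1.25 ± 0.327 and 1.17 ± 0.459 FPKM gave a log2 fold change of −0.13 (SE 0.26, 95% interval −0.70 to 0.44, limma adjusted p = 0.937; exact permutation p = 0.643). Its sign turned without MEKi heart 2 (0.016) and with array weights (0.037).

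*Peg3* (ENSMUSG00000002265, chr7:6703892-6730431, minus strand) varied 1.98-fold among hearts. It stood at 0.473, 0.375, 0.406, 0.577 and 0.660 FPKM in the vehicle group, and at 0.333, 0.612, 0.608, 0.428 and 0.387 FPKM in the MEKi group. Both groups covered nearly the same span. The group means were 0.498 ± 0.119 and 0.474 ± 0.129 FPKM (log2 fold change −0.07, SE 0.23, 95% interval −0.58 to 0.45, limma adjusted p = 0.948; exact permutation p = 0.714). The sign turned without vehicle heart 5 (0.025) or MEKi heart 1 (0.027).

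*Meg3* (ENSMUSG00000021268, a lincRNA at chr12:109541001-109571726, plus strand) was highest in vehicle hearts 1 and 5. Its values were 0.499, 0.265, 0.152, 0.151 and 0.418 FPKM for vehicle, and 0.223, 0.335, 0.271, 0.155 and 0.186 FPKM for MEKi. The MEKi hearts lay within the vehicle range. Means of 0.297 ± 0.157 and 0.234 ± 0.0712 FPKM corresponded to a log2 fold change of −0.18 (SE 0.31, 95% interval −0.86 to 0.50, limma adjusted p = 0.889; exact permutation p = 0.556), which shrank to −0.01 without vehicle heart 1. Its partner *Dlk1* (ENSMUSG00000040856, chr12:109452823-109463336, plus strand) had 0.0210, 0.0981, 0, 0.0381 and 0.0729 FPKM for vehicle, and 0.0309, 0.113, 0.0602, 0.0791 and 0.0225 FPKM for MEKi. With 0 to 11 fragments per heart, its values carry a large counting error, and the count of 0 in vehicle heart 3 allows up to 0.0373 FPKM (3 fragments). Means of 0.0460 ± 0.0395 and 0.0612 ± 0.0369 FPKM gave a log2 fold change of 0.16 (SE 0.23, 95% interval −0.36 to 0.67, limma adjusted p = 0.877; exact permutation p = 0.516).

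**Figure D2:**
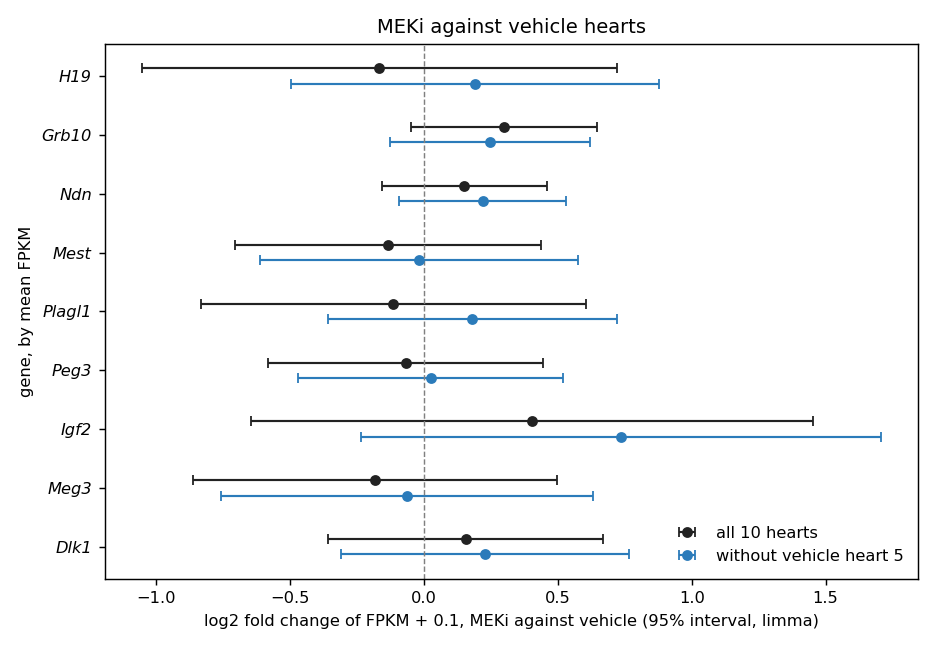
Log2 fold change of FPKM + 0.1 in MEKi against vehicle hearts for each gene (x axis), with 95% intervals from limma, for all 10 hearts (black) and without vehicle heart 5 (blue); genes are ordered by mean FPKM. All intervals include 0, and the points for *H19*, *Plagl1* and *Peg3* move from below 0 to above it when vehicle heart 5 is left out.

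More than treatment, 1 heart stood apart across the set. Vehicle heart 5 was the highest of its group in 6 of 9 members and above the group mean in 8 of 9. It was the highest of all 10 hearts for *H19*, *Plagl1*, *Igf2* and *Peg3*. *Grb10* was the exception, with vehicle heart 5 among the lowest. On the log2 scale vehicle heart 5 lay 0.62 above its group over the 9 genes on average, whereas the other 9 hearts lay between −0.28 and 0.11. At the other end was MEKi heart 4, the lowest of its group in 5 of 9 members. The share of all genes that peak in vehicle heart 5 was not computed, so these counts cannot be read as particular to the members. Among the lists read below, the other network genes and the IGF axis also had their highest summed FPKM in vehicle heart 5 (184 and 373 FPKM). No list of chromosomal neighbours did. The 2 sums are carried largely by abundant genes, *Dcn* and *Igfbp7*, at means of 112 and 162 FPKM over the 10 hearts. They therefore do not show that most genes of these lists peaked in vehicle heart 5.

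**Figure D3:**
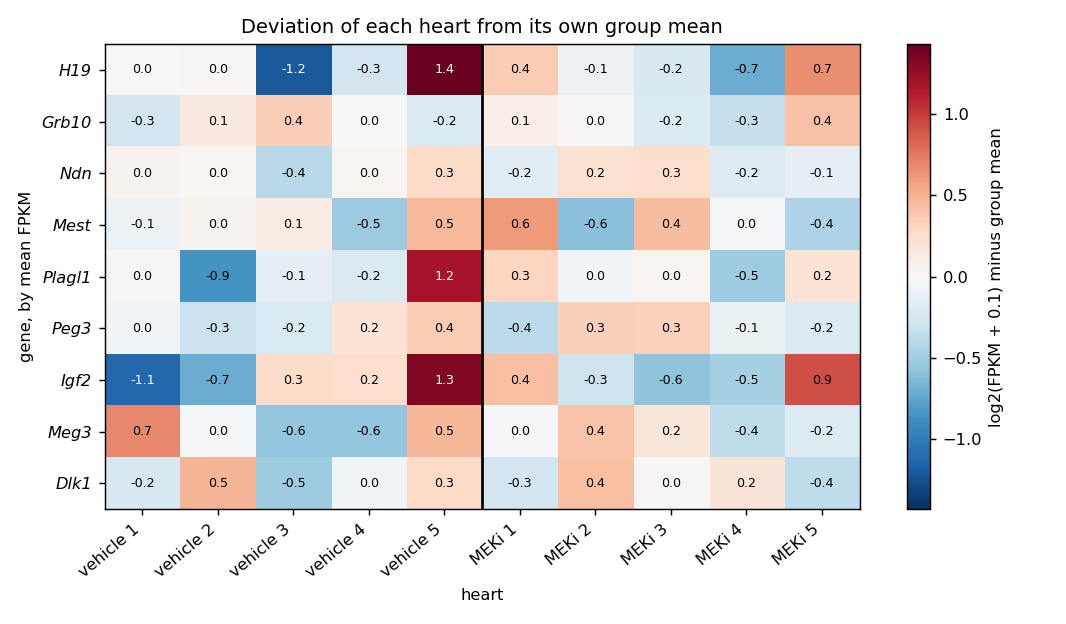
Deviation of log2(FPKM + 0.1) from the mean of the heart's own group, for 9 genes (rows, by mean FPKM) and 10 hearts (columns); red is above and blue below the group mean. Vehicle heart 5 is above its group mean in 8 of 9 rows, with its largest deviations in *H19*, *Igf2* and *Plagl1*.

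Marker transcripts of cardiac cell types also set vehicle heart 5 apart. Of 10 marker lists, its summed FPKM was the highest of all hearts in 4. Endothelial markers summed to 158 FPKM in vehicle heart 5, against 99.2 to 131 in the other vehicle hearts and 97.8 to 119 in MEKi hearts. Macrophage markers summed to 178 FPKM, against 96.7 to 137 and 96.5 to 116. For fibroblast markers the sum was 105 FPKM, against 70.0 to 93.5 and 76.7 to 99.97, and for mural cell markers 231 FPKM, against 174 to 215 and 187 to 201. Cardiomyocyte markers were at their vehicle minimum there, 7938 FPKM against 8268 to 10102, within the MEKi range of 7667 to 10232 FPKM. Such sums are carried by the most abundant genes, here *Actc1*, at a vehicle mean of 5529 FPKM. Skeletal muscle markers were at their vehicle maximum, 585 FPKM against 424 to 527, within the MEKi range of 441 to 633 FPKM. That sum is carried by *Ckm* and *Acta1*, at means of 412 and 105 FPKM over the 10 hearts. Of the same list, *Mylpf* averaged 0.817 FPKM, *Myh1* was at 0 in at least 1 heart and *Myh4* in all. Neuron or glia markers were at their lowest of all hearts, 9.07 FPKM, against 11.5 to 16.0 FPKM in the other vehicle hearts and 9.28 to 14.4 FPKM in MEKi hearts, with *Gap43* of that list at 0 in a heart. No marker of the endothelial, macrophage, fibroblast, mural and cardiomyocyte lists was at 0 in any heart. Atrial markers were high in 3 hearts, vehicle hearts 4 and 5 and MEKi heart 2, with a range of 13.7 to 898 FPKM in the vehicle group and 17.5 to 740 FPKM in the MEKi group. *Sln* and *Bmp10*, of that list, were at 0 in at least 1 heart. *H19* was at 28.4 FPKM in each of the other 2 hearts rich in atrial markers. *Peg3* had all 3 of them among its 4 highest hearts, at 0.660 FPKM in vehicle heart 5, 0.612 FPKM in MEKi heart 2 and 0.577 FPKM in vehicle heart 4. It also reached 0.608 FPKM in MEKi heart 3, which was not rich in atrial markers. No other member had all 3 among its 4 highest. *Mest* was at its lowest of all hearts in MEKi heart 2 (0.694 FPKM), and *Meg3* in vehicle heart 4 (0.151 FPKM). Epicardial markers reached 17.9 FPKM in vehicle heart 5, within the range of 7.63 to 22.8 FPKM of the other vehicle hearts and above the MEKi range of 0.765 to 16.4 FPKM, with *Upk1b* at 0 in a heart. The part of these cell types in the members' levels was not tested, and in bulk tissue fewer cells of a type and less RNA per cell cannot be told apart.

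Whether members rose and fell together was examined across the 10 hearts, after each group mean had been taken off. Among the 10 pairs of the 5 members past the filter, 0 reached an adjusted p under 0.05 and 0 an unadjusted one by exact permutation within groups, and the median Pearson r was 0.11. *H19* and *Plagl1* gave the largest value, with r = 0.71 (permutation p = 0.0748, adjusted p = 0.535) and Spearman rho = 0.55 (permutation p = 0.145). Without vehicle hearts 3 and 5, the 2 farthest from the median of *H19*, r was 0.58. Without vehicle heart 5 alone it was 0.28, and without vehicle heart 2 it was 0.90, so its size rests on single hearts. Extending to all 36 pairs of 9 members, a choice made after seeing the data, left 0 adjusted and 2 unadjusted p under 0.05, with a median r of 0.21 and 23 of 36 pairs positive. Both of the 2 involved *Ndn*. *Peg3* and *Ndn* had r = 0.79 (permutation p = 0.0180, adjusted p = 0.480) and rho = 0.70 (permutation p = 0.0522), and r = 0.66 without vehicle heart 5 and MEKi heart 2. *Meg3* and *Ndn* had r = 0.70 (permutation p = 0.0267, adjusted p = 0.480) and rho = 0.70 (permutation p = 0.0522), and r = 0.73 without vehicle hearts 1 and 5. For the neighbours *H19* and *Igf2*, r was 0.55 (permutation p = 0.155, adjusted p = 0.563) and rho 0.50 (permutation p = 0.192). It was 0.59 without vehicle hearts 3 and 5 and 0.15 without vehicle heart 5 alone. For *Dlk1* and *Meg3*, r was 0.35 (permutation p = 0.387, adjusted p = 0.702) and rho 0.25 (permutation p = 0.544), and r was 0.64 without vehicle hearts 1 and 5.

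For each member past the filter, the transcripts with the most similar deviations were sought across all genes past the filter. No other member was among those named below, but *Igf2*, *Meg3*, *Peg3* and *Dlk1* were under the filter and could not appear. With so few members among 12602 genes, their absence from the top places does not bear on whether members moved together. Closest to *H19* over the 10 hearts were *Emilin1*, which encodes an elastic-fibre glycoprotein (r = 0.94), *Cinp* (r = 0.90) and *Kctd5* (r = 0.90). *Espn* (r = 0.96), *Peak1* (r = 0.95) and *Mapk1ip1l* (r = 0.95) were closest to *Plagl1*. For *Mest* they were *Bbs9* (r = 0.93), *Inpp5b* (r = 0.88) and the pseudogene *Gm6206* (r = 0.88). *Grb10* was followed by *Ogfod1* (r = 0.98), *Atp1b1*, a sodium pump subunit (r = 0.98), and *Snx27* (r = 0.97). *Ndn* was followed by *Tcirg1* (r = 0.95), *Pik3cd* (r = 0.94) and *Efemp2*, another elastic-fibre gene (r = 0.94). Each was picked as the top of 12602 genes over the same hearts, so these values are a description with no p.

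Other imprinted genes assigned to the network gave a mixed direction too. Of 12 such genes, 8 passed the filter, 4 of them higher and 4 lower with MEKi, and 0 were called by limma. Their median log2 fold change was 0.01, the same as over all 12602 genes (0.01). *Dcn*, a collagen-binding proteoglycan, was the most abundant, with 113 ± 22.0 FPKM in the vehicle group and 110 ± 18.9 FPKM in the MEKi group (SD; log2 fold change −0.03, limma adjusted p = 0.971). *Cdkn1c*, an inhibitor of cyclin-dependent kinases, measured 12.3 ± 2.89 and 11.4 ± 2.85 FPKM (log2 fold change −0.11, limma adjusted p = 0.932). *Igf2r*, the receptor that removes IGF2 from the cell surface, measured 9.39 ± 1.09 and 10.8 ± 0.738 FPKM (log2 fold change 0.20, limma adjusted p = 0.664). *Gnas*, which encodes a stimulatory G protein subunit, measured 6.08 ± 1.42 and 8.22 ± 1.499 FPKM (log2 fold change 0.45, limma adjusted p = 0.606) and was the only gene of the list with an unadjusted limma p under 0.05. By exact permutation, unadjusted, *Gnas* had p = 0.0397 and *Igf2r* p = 0.0476, whereas the unadjusted limma p of *Igf2r* was 0.0635. The share of all genes under 0.05 by permutation was not computed, so these 2 values have no background.

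Genes that surround the members on their chromosomes were then read for the same comparison. Of 35 neighbours, 13 passed the filter, 18 were under it and 4 were listed at 0 in every heart (*Zfp264*, *Zim3*, *Magel2* and *Snurf*). Exon bases shared with other genes were read for the members only, so a listed 0 need not mean that a neighbour was silent. With MEKi, 9 of the 13 were higher and 4 lower, 0 were called by limma, and the median log2 fold change was 0.07. Beside *H19* and *Igf2*, the membrane gene *Cd81* stood at 104 ± 10.6 and 107 ± 8.34 FPKM and the histone chaperone gene *Nap1l4* at 48.6 ± 4.41 and 53.5 ± 3.50 FPKM in vehicle and MEKi hearts. *Ins2*, *Th* and *Ascl2*, in the same cluster, had at most 14 fragments in any heart. In the *Dlk1* and *Meg3* cluster the noncoding RNA *Rian*, at 0.438 ± 0.0625 and 0.363 ± 0.0833 FPKM, exceeded *Meg3* in group means and *Ppp2r5c* was the most abundant, at 10.2 ± 1.76 and 10.04 ± 0.381 FPKM, whereas *Rtl1*, *Mirg* and *Dio3* had at most 12 fragments per heart. Beside *Mest*, *Copg2* averaged 4.89 ± 0.868 and 5.59 ± 1.203 FPKM. Beside *Ndn*, *Snrpn* was well expressed at 13.8 ± 1.62 and 13.4 ± 1.84 FPKM while *Magel2* was listed at 0. Next to *Grb10*, the aromatic amino acid decarboxylase gene *Ddc* averaged 0.506 ± 0.0906 FPKM in the vehicle group and 1.11 ± 0.484 FPKM in the MEKi group. It was the only neighbour past the filter whose groups did not overlap (log2 fold change 0.91 with SE 0.28, limma adjusted p = 0.461; exact permutation p = 0.00794, the smallest possible), beside a background of 1.64% of genes.

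**Figure D4:**
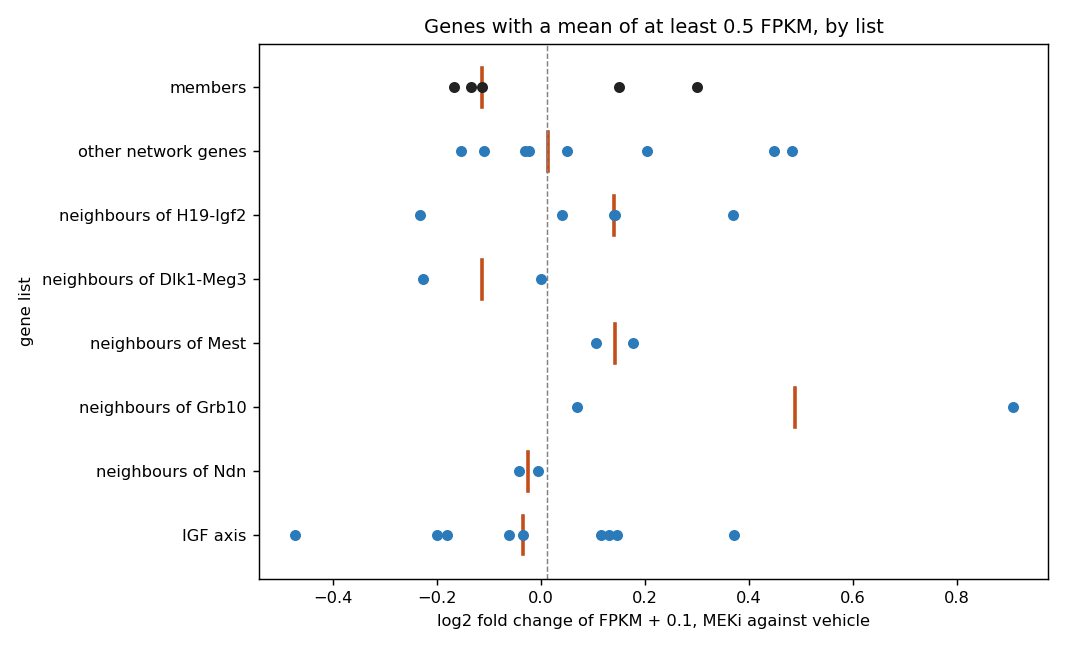
Log2 fold change of FPKM + 0.1 in MEKi against vehicle hearts (x axis) for each gene past the filter, by list; vertical bars are list medians and the dashed line is the median of all 12602 genes (0.01). *Ddc*, next to *Grb10*, lies farthest from 0, at 0.91, and the 5 members past the filter lie between −0.17 and 0.30.

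The IGF axis, in which *Igf2* is a ligand and *Grb10* an inhibitor downstream of the receptors was the last list read. Of its 14 genes, 9 passed the filter. With MEKi, 4 were higher and 5 lower, with a median log2 fold change of −0.03. By limma 0 were called and 2 had an unadjusted p under 0.05, beside 960 of all 12602 genes. *Igf1*, the ligand of postnatal growth, averaged 1.95 ± 0.229 FPKM with vehicle against 1.39 ± 0.287 FPKM with MEKi (log2 fold change −0.47; limma adjusted p = 0.461). *Igfbp3*, a carrier of IGFs, averaged 12.3 ± 1.83 and 16.1 ± 3.31 FPKM (log2 fold change 0.37; limma adjusted p = 0.619). Neither passed over all genes. Mean *Igf1* thus exceeded mean *Igf2* in both groups, subject to the uncertainty of the *Igf2* level.

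Transcripts of the sex chromosomes divided the hearts exactly as treatment did. *Xist* was at 5.86 ± 0.671 FPKM in MEKi hearts and at a mean of 0.00132 FPKM in vehicle hearts, and *Ddx3y* and *Eif2s3y* were at 11.2 ± 0.714 and 9.74 ± 1.01 FPKM in vehicle hearts and had no fragment in MEKi hearts. The vehicle hearts thus had the transcript pattern of males and the MEKi hearts that of females. According to the methods both sexes were used, and the labels give none for a heart. Contributions of sex and treatment to any of the values above cannot be told apart.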

How the data were processed

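Poly(A)-selected RNA of 10 hearts was sequenced, and the authors deposited a single table of FPKM with the length of each gene. The submitters' processing notes name fastp, STAR 2.5, HTSeq 0.6.1 and mm10; strandedness and the annotation release are not given in the sources used here. FPKM times length gave whole fragments for 100% of values (tolerance 0.01), which set the depth. Groups and replicates came from the labels, and nothing there states how replicates relate beyond separate hearts. Coordinates are GRCm38, the same as in GENCODE M21 for 98.3% of 54409 genes. The members and all gene lists were chosen with earlier results of these data known. The groups were compared by limma 3.58.1 (R 4.3.3) on log2(FPKM + 0.1), using eBayes with a trend and genes whose mean reached 0.5 FPKM, two-sided, with Benjamini-Hochberg adjustment over all genes, after the fit had been tested on simulated data. Per-gene permutations ran over 252 assignments and correlations over 14400 orders within groups, in Python 3.11.15. The rule for named genes took all members, up to 4 of the most abundant network genes and of the neighbours in each cluster, the 2 IGF axis genes with the smallest p, and the 3 genes most correlated with each member past the filter. Not all genes it allows are named, and scarce neighbours given beside a count (such as Ins2 or Mirg) were named after their values were seen. So were genes named because they carry a summed FPKM (such as Igfbp7 or Ckm). Alternatives were pseudocounts of 1 and 0.01, other filters, TPM, quantile normalization, eBayes without a trend, array weights, voom, a replicate block, omission of sex-linked and mitochondrial genes and omission of single hearts or of 3 hearts. Replicate numbers were not used to pair the hearts in the main fit.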

Additional observations from a re-analysis of the deposited data

Results flagged for a closer look

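The 18 groups of 5 hearts (9 genes, 2 groups) were screened on FPKM, without logs, for a heart lying far from the rest. About 0.9 groups would be picked out if levels were normally distributed and genes independent, and 2 were found. The genes share their hearts and normality was not tested, so 0.9 is no measure of chance here. The log2 scale of the fits was not screened. In both groups the heart picked out was vehicle heart 5. *H19* was at 91.7 FPKM there, and the next vehicle heart was at 34.4 FPKM. *Plagl1* was at 1.86 FPKM there, and the next vehicle heart was at 0.775 FPKM.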

How the results depend on the processing

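No member had an adjusted p under 0.05 or separate groups under any alternative run. *Igf2*, *Meg3*, *Dlk1*, *Grb10* and *Ndn* kept their direction in all of theirs, though the log2 fold change of *Igf2* moved from 0.41 to 1.00 without the 3 hearts with high atrial transcripts and that of *Dlk1* from 0.16 to 0.71 with voom. With pseudocounts of 1 and 0.01 they were 0.11 and 0.57 for *Igf2* and 0.021 and 0.59 for *Dlk1*. Without the same 3 hearts the log2 fold change turned to 0.25 for *H19*, 0.22 for *Plagl1* and 0.037 for *Peg3*, and with array weights to 0.11 for *Plagl1* and 0.037 for *Mest*. Leaving out single hearts gave −0.47 to 0.19 for *H19*, −0.33 to 0.18 for *Plagl1*, −0.15 to 0.027 for *Peg3* and −0.29 to 0.016 for *Mest*. The cause was not tested. Over all genes, 10 calls became 18 with array weights, 5 without the 3 atrial-rich hearts, 2 at a mean of at least 5 FPKM (2 members tested), and 5 to 13 when single hearts were left out, 5 without vehicle heart 2. With X, Y and mitochondrial genes removed limma called 0, with 924 unadjusted. A replicate block gave 4 calls. Hearts of the same number did not deviate together (correlations of −0.15 to −0.02, and no heart matched its own number best). They were therefore not paired in the main fit. These correlations cannot exclude a shared litter or batch, which the labels do not give. For members under the filter, alternatives were run within the fit over all genes above 0. Correlations within a single group of 5 hearts are not given, being over fewer than 6 hearts. Depth limits *Dlk1* and *Igf2* most, with 0 to 11 and 9 to 86 fragments per heart, and 3 fragments are the most that a count of 0 allows.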
